A study of Homo sapiens with 3 samples.

Results

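The capture targets of 5 spliced noncoding genes, TUG1, MIR17HG, PVT1, DLEU2 and MIAT, were examined in the probe design of a branchpoint study in K562, a human leukaemia cell line. A target is an interval at an intron end for which capture probes were designed. The members are the targets that lie wholly inside fixed hg19 windows around the genes, and 47 of the 377858 targets of the design do. The windows run (in Mb) from 128.806 to 129.114 on chromosome 8 for PVT1, from 27.053 to 27.073 on chromosome 22 for MIAT and from 31.365 to 31.376 on chromosome 22 for TUG1. On chromosome 13 they run from 50.556 to 50.700 for DLEU2 and from 92.000 to 92.007 for MIR17HG. The study sequenced 3 K562 libraries, biological replicates of 1 group per the labels, from RNA depleted of ribosomal RNA and enriched with probes for intron ends. The deposited list is the design common to all 3 libraries, so it holds no value per replicate, no read depth and no comparison between conditions. Each target has a position, a width and a score. No source used here says what the score measures, and it is reported as a property of the design, not as expression. The list is a census, so its counts carry no replicate error and no test was run.

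Long noncoding RNAs are transcribed and spliced like messenger RNAs, and many serve as precursors of smaller RNAs. When an intron is removed, its 5′ end is joined to the branchpoint, a base near its 3′ end, and the resulting lariat is opened and degraded. A microRNA hairpin inside an intron is cut out by the Drosha complex, and the host transcript can be spliced besides. MIR17HG is the host of the miR-17-92 cluster, known as an oncogenic microRNA cluster activated by MYC. DLEU2 is the host of miR-15a and miR-16-1, which are lost in many chronic lymphocytic leukaemias through deletion on chromosome 13. PVT1 lies beside MYC, is often amplified with it, and hosts MIR1204, MIR1205, MIR1206 and MIR1207. TUG1 is a widely expressed RNA first described in retina, and MIAT (Gomafu) is a nuclear RNA best known in neurons.

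The mature microRNAs of the DLEU2 and MIR17HG hosts are shown because their hairpins lie inside these 2 host genes, whose introns are described further on. All 8 were matched by name in the RefSeq table (GRCh38.p14), and they are written 5′ to 3′ with the seed, bases 2 to 8, in capitals. The 6 of MIR17HG lie on the plus strand of chromosome 13.
hsa-miR-17-5p: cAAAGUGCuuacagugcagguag
hsa-miR-20a-5p: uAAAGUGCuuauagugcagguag
hsa-miR-18a-5p: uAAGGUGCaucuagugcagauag
hsa-miR-19a-3p: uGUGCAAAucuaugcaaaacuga
hsa-miR-19b-3p: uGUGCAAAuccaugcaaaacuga
hsa-miR-92a-3p: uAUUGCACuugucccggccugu
The 2 of DLEU2 lie on the minus strand of the same chromosome.
hsa-miR-15a-5p: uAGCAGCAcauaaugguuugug
hsa-miR-16-5p: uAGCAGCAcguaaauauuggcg
The 8 sequences have 5 seeds. miR-17 and miR-20a have the same seed, as do miR-19a with miR-19b and miR-15a with miR-16, while miR-18a and miR-92a each have their own.

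The 5 genes differed widely in score. TUG1 had the highest mean, 99.0 over 3 targets, followed by MIR17HG with 32.0 over 5, PVT1 with 20.0 over 11, DLEU2 with 6.86 over 22 and MIAT with 0.0 over 6. Ranges overlapped between each gene and the next, for DLEU2 and MIAT only at 0. TUG1 spanned 86 to 110 and MIR17HG 5 to 94, PVT1 1 to 84 and DLEU2 0 to 27. PVT1 and DLEU2 had the same median score, 4, and TUG1 and MIR17HG had medians of 101 and 21. Over the whole list the mean score was 6.80, the median 1 and the highest value 125.

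**Figure D1:**
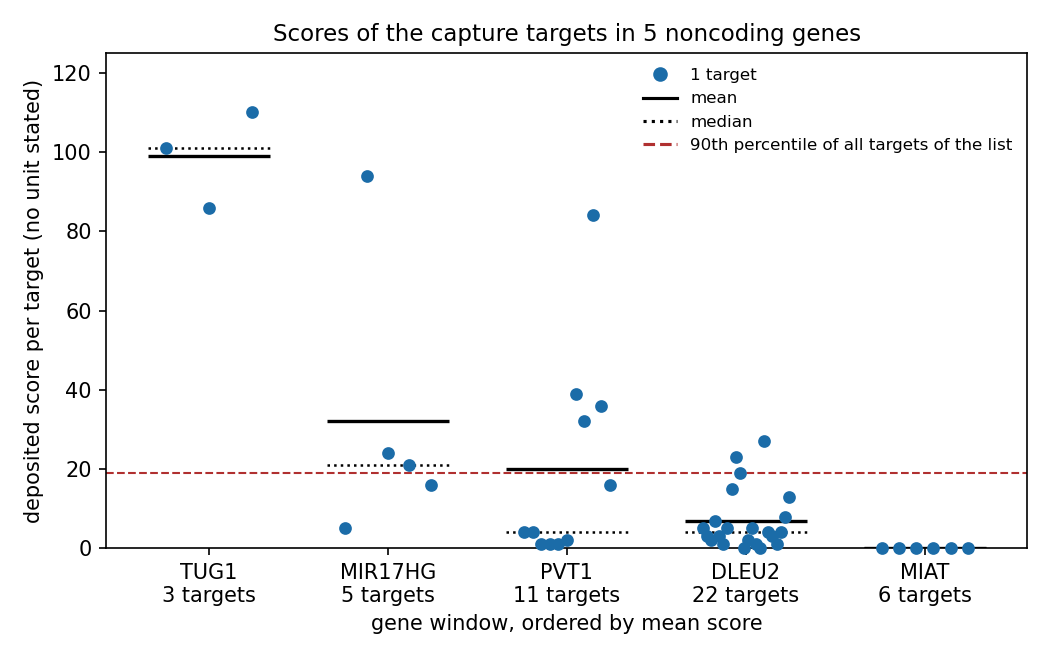
Deposited score (vertical axis, linear, no unit stated) of each target by gene (horizontal axis); points are targets, solid lines means, dotted lines medians, and the dashed line is the 90th percentile of all targets, 19. The 3 targets of TUG1 lie at 86 to 110, MIR17HG reaches 94 and PVT1 84, and the 6 targets of MIAT all lie at 0.

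Of all 377858 targets, 52.8% scored above 0 and 10.4% scored 19 or more, which is the 90th percentile. Among the 47 members, 39 (83.0%) scored above 0 and 13 (27.7%) scored 19 or more. The 8 members at 0 were all 6 of MIAT and 2 of the 22 of DLEU2. The 13 high ones were 4 of PVT1, 3 of TUG1, 3 of MIR17HG and 3 of DLEU2. A minimum of 2 was met by 33 members (70.2%) and by 44.0% of the list, and the 95th percentile, 35, by 7 members (14.9%) and by 5.18% of the list. Each gene can also be read against its own chromosome, where 46.1% of targets on chromosome 8, 47.7% on chromosome 13 and 62.2% on chromosome 22 scored above 0. Targets of 1 window can share a transcript and are not independent of each other. The DLEU2 window also holds targets of overlapping genes.

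To find out which intron end a target stands for, lengths were compared, since lengths, unlike positions, mostly carry over between genome builds. An intron whose length differs between the builds would be missed. Annotated introns of GENCODE release 29 were set against the distance between pairs of targets in a window. The distance was taken between the outer edges of a pair and, for targets trimmed at the exon side, between their inner edges. A target next to a placed intron was also accepted where the added exon length fitted exactly. The inner-edge and added-exon comparisons were brought in after the outer-edge matches were seen, and the last was narrowed to exact fits after its first matches were seen. In this way 31 of the 47 targets were placed on introns of the named gene, 9 on introns of genes that overlap DLEU2, and 7 stayed unplaced. In all 17 introns placed by outer edges the pair was 1 nt shorter than the intron. Applied to the windows of the other 4 genes in turn, the same intron lengths gave 1 match over 704 pairings of an intron with a window by outer edges, and 17 over 176 pairings with their own window. The windows differ in their number of targets, and the 1 match, of a TUG1 intron, fell in the DLEU2 window, which has the most. There it was 1 over 78 pairings, against 9 over 98 for introns of DLEU2 and the genes that overlap it. An intron longer than the stretch that the targets of a window cover could not match there. The added-exon comparison was not checked against other windows.

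TUG1 stood near the top of the list, whose highest score was 125. Its 3 targets lie on chromosome 22 from 31367934 to 31368033, from 31368160 to 31368259 and from 31369588 to 31369688, with scores of 101, 86 and 110. Only 0.878% of all targets (3319) scored 86 or more, and 0.281% scored 110 or more. All 3 lie within 1.8 kb, and the nearest target outside the window, 4.9 kb before the first, scored 14. The next one after them was 107.8 kb away and scored 3.

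No TUG1 intron of release 29 had both ends in the list. When 100 nt at either end, less annotated exons, were taken from the 15 distinct introns of that release, no interval was left, because annotated exons cover every intron end. The design itself used release 12. The gap of 126 nt between the first and second target is 1 nt longer than a 125 nt internal exon found in 4 TUG1 transcripts. The start of the last target lies 1428 nt after that of the one before, and the intron after this exon plus the next exon add up to 1429 nt (682 and 747 nt, or 751 and 678 nt in another transcript). The lengths thus fit within 1 nt, but no pair of targets spans an intron. All 3 targets were therefore left unplaced. The 125 nt exon is shown as the exon whose length fits the gap between the targets scoring 101 and 86, without its position there being established, in the sense direction from the GENCODE transcripts, with its last 3 bases, which border the 5′ splice site, in capitals.
TUG1 exon, 125 nt: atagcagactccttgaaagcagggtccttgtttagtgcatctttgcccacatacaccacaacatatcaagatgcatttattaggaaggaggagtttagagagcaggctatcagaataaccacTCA

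MIR17HG had 5 targets, all of 100 nt, within 2.4 kb at the 5′ side of its window, and all 5 were placed. They lie on chromosome 13 and scored 5 (from 92000215 to 92000314), 94 (92001852 to 92001951), 24 (92002026 to 92002125), 21 (92002310 to 92002409) and 16 (92002482 to 92002581). The second stood far above the other 4, and only 0.633% of the list scored 94 or more. Without it the mean of the gene fell from 32.0 to 16.5.

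The first 2 targets are the 5′ and 3′ ends of a 1738 nt intron present in all 3 transcripts of MIR17HG, with scores of 5 and 94. The next 2 are the ends of a 385 nt intron present in 2 of the 3 transcripts, with scores of 24 and 21. The last starts 456 nt after the one scoring 24, the sum of that intron and a 71 nt exon. It is therefore the 5′ end of the next intron, of 3706 nt, and scored 16. In GRCh38, all 6 microRNA hairpins lie inside this 3706 nt intron in 1 transcript and inside the last exon of the other 2. MIR17 begins 378 nt from the intron's 5′ end and MIR92A1 ends 2541 nt from its 3′ end, so neither 100 nt terminus reaches a hairpin. No target for the 3′ end of that intron was in the window. In 1 transcript of release 29 the 1738 nt intron is the only one. The last exon of that transcript covers the targets scoring 24, 21 and 16, so these are intronic in only some transcripts. Both short exons between the targets are shown, since the score differs far more across the one than across the other. Capitals again mark the last 3 bases.
MIR17HG exon, 73 nt: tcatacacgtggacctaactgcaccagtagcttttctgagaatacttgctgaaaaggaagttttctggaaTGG
MIR17HG exon, 71 nt: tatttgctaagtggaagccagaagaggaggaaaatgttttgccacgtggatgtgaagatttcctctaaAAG
On the 2 sides of the 73 nt exon the scores were 94 and 24, 74 nt apart. A difference of 70 or more was found in 0.906% of the 169149 neighbouring pairs of the list that lie at most 300 nt apart. On the 2 sides of the 71 nt exon they were 21 and 16, a difference that 27.7% of those pairs reach. The pairs of the list were not matched to these for score.

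PVT1 had a low stretch and a high stretch. The first 6 of its 11 targets, in order, scored 4, 4, 1, 1, 1 and 2. The other 5 scored 39, 32, 84, 36 and 16. The groups do not overlap, and a stretch of 80.7 kb without any target separates them. A split at the longest gap also parted the scores of MIR17HG (5 against 16 to 94) and TUG1 (86 to 101 against 110). In both of these, 1 side held only 1 target. In DLEU2 the 2 sides overlapped (1 to 7 and 0 to 27), and in MIAT all scores were 0. How often the targets of other genes in the list part at their longest gap was not counted. All 11 were placed on introns of PVT1. Every PVT1 target scored above 0, and the mean was 2.17 in the first stretch and 41.4 in the second.

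The gene was sparsely covered, with 1 target per 28.0 kb, and the first target lies 97.2 kb inside the window. The highest score, 84, belongs to the interval from 129108664 to 129108763 on chromosome 8, and 0.949% of the list scored as much or more. It was followed by 39 (129082306 to 129082405) and 36 (129108903 to 129109001). The last target of the gene, from 129111516 to 129111615, scored 16. The 6 low targets run from 128903246 to 128903345, 128951654 to 128951753, 128996050 to 128996149, 128996452 to 128996551, 129001308 to 129001407 and 129001539 to 129001638. The narrowest target of the 5 genes lies here, 12 nt from 129082608 to 129082619, with a score of 32. It was placed by its inner edge as the 5′ end of a 26245 nt intron whose 3′ end is the target scoring 84. The 80868 nt intron that bridges the low and the high stretch scored 2 at its 5′ end and 39 at its 3′ end.

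The DLEU2 window held 22 targets, among them some of overlapping genes. Their median score was 4, against 1 for the whole list and 0 for chromosome 13, and their mean of 6.86 stood beside 6.80 and 4.11. Scores above 0 were found in 90.9% of them, against 52.8% of the list and 47.7% of chromosome 13. The 90th percentile of the list was reached by 3 targets (13.6%), against 10.4% of the list and 5.15% of chromosome 13: 27 (chromosome 13 from 50649594 to 50649693), 23 (50619153 to 50619241) and 19 (50619369 to 50619468). A target at 15 (50618905 to 50619004) lies next to the last 2, so 3 of the 4 highest targets are neighbours. The narrowest target, 71 nt from 50623828 to 50623898, scored 0.

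DLEU2 overlaps other genes, and the list marks every target with a plus sign, so the strand it was designed for cannot be told. By length, 9 of the 22 targets were placed on DLEU2 itself, with a mean score of 10.3 and a median of 4. Another 9 were placed on overlapping genes, with a mean of 5.22, a median of 5 and a highest score of 13. Of these, 5 carry intron ends of TRIM13, a gene for a ubiquitin ligase, 3 carry ends of KCNRG, which codes for a regulator of potassium channels and shares 1 target with TRIM13, and 2 carry ends of the noncoding DLEU1. The remaining 4 were not placed and scored 2, 5, 3 and 1. All 4 top scores of the window were among the targets placed on DLEU2, as were both of its scores of 0. The lowest score on an overlapping gene was 1.

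MIR15A and MIR16-1 lie in the same DLEU2 intron, 382 and 522 nt from its 5′ end in GRCh38. That intron is 4815 nt long in 5 of the 8 transcripts and 4351 nt long in 1. The target scoring 19 starts 464 nt after the one scoring 15, the sum of a 349 nt intron and a 115 nt exon, which puts it at the 3′ end of the 4351 nt form. No target was placed at the 5′ end of this intron. Its neighbours with 23 and 15 are the 5′ and 3′ ends of the 349 nt intron that follows in that transcript. In the annotation this 349 nt intron and the 4815 nt form share their 3′ end, so the target scoring 15 also lies at the 3′ end of the form found in 5 transcripts. The 3′ end of the 18434 nt intron on the other side, read towards the start of the gene, is the trimmed target with score 0.

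The top DLEU2 target, with 27, is the 5′ end of a 7395 nt intron whose 3′ end scored 0. Across the 95 nt exon before that intron, the neighbouring target, the 3′ end of a 6169 nt intron, scored 4. The exon is shown because the score steps from 4 to 27 across 96 nt. That difference is reached by 7.27% of near pairs of the list, which were not matched for score. The exon is given in the sense of DLEU2, which runs on the minus strand.
DLEU2 exon, 95 nt: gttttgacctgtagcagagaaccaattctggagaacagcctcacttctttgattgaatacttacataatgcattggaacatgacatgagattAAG

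MIAT was the one gene of the 5 whose targets all scored 0, a score that 47.2% of the list also has. Its 6 targets lie on chromosome 22 from 27053620 to 27053719, 27059180 to 27059279, 27061395 to 27061420 (26 nt wide), 27062902 to 27063001, 27063048 to 27063147 and 27063275 to 27063374, and each scored 0. They belong to a run of 7 targets at 0 over 37.2 kb. The targets next to that run scored 2 and 6. All 6 were placed on MIAT introns, among them both ends of a 5661 nt intron present in 8 of the 23 transcripts and both ends of a 247 nt intron. A 126 nt exon of 3 transcripts lies between the fifth and sixth target and is shown as a stretch with a score of 0 on either side.
MIAT exon, 126 nt: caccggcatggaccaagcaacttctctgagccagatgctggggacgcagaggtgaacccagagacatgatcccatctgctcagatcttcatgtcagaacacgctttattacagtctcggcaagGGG

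**Figure D2:**
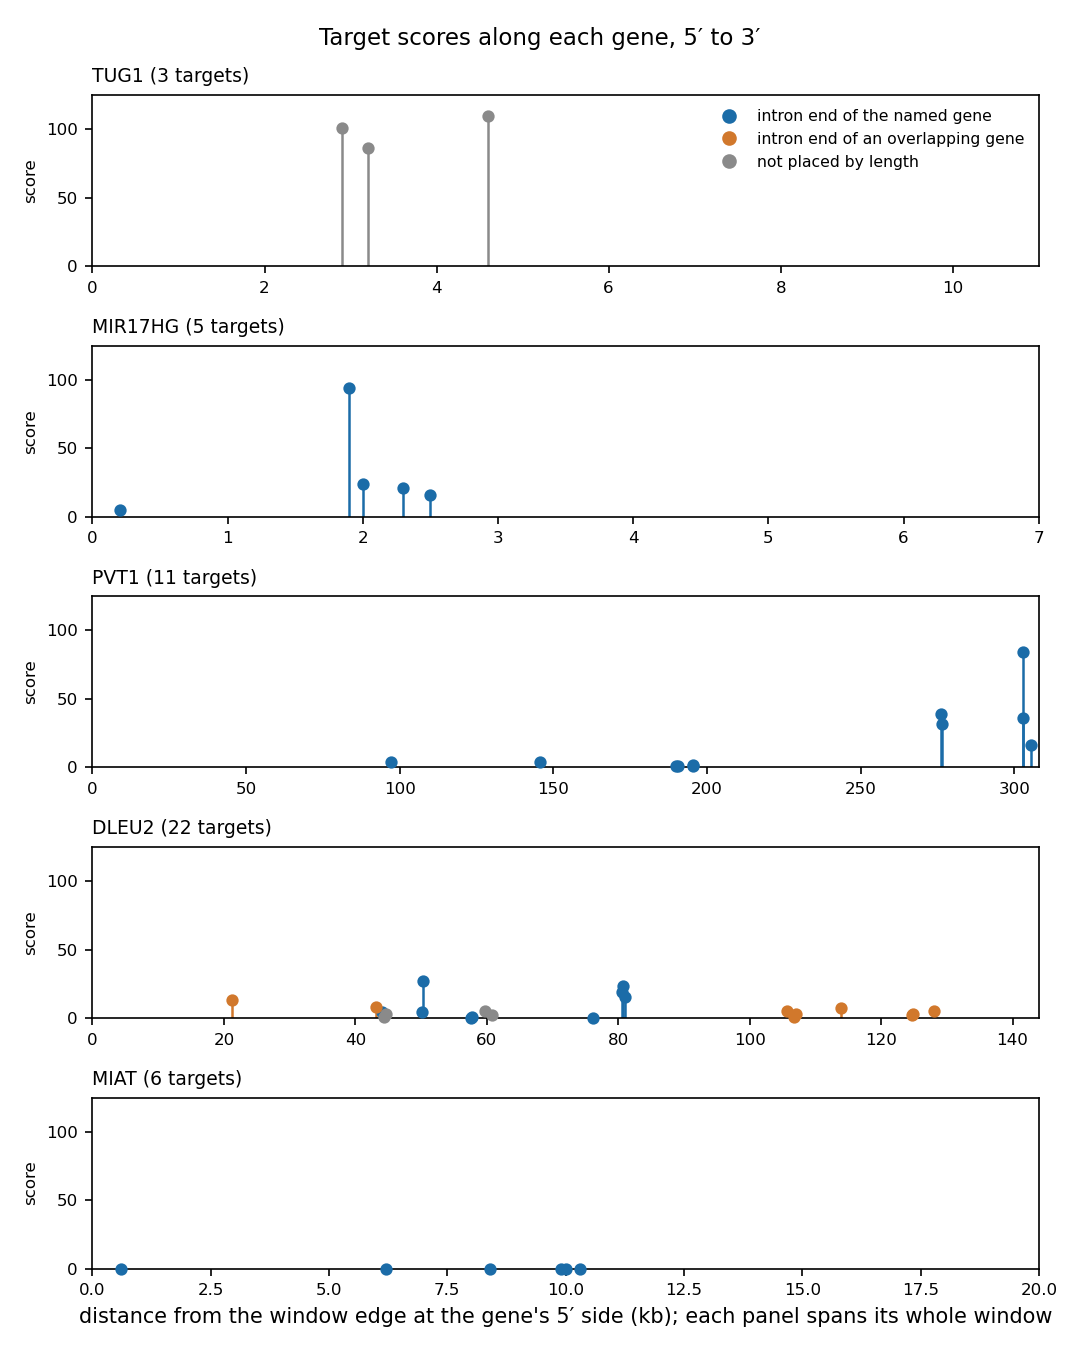
Deposited score (vertical axis, linear, no unit stated) of each target against its distance in kb from the window edge at the 5′ side of the gene (horizontal axis, each panel over its own window); blue marks targets placed by length on an intron of the named gene, orange those placed on an overlapping gene, and grey those not placed. In PVT1 the first 6 targets score 1 to 4 and the last 5 score 16 to 84. In DLEU2 the scores of 15 to 27 are all on targets placed on DLEU2, as are the scores of 0.

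The 2 ends of each placed intron were compared as a description, since what the score measures is not stated. The list held both ends of 16 introns of the named genes when outer and inner edges were both used. There were 6 in PVT1, 5 in DLEU2, 3 in MIAT and 2 in MIR17HG. The 3′ end scored higher in 3 of them, lower in 7 and the same in 6, of which the 3 of MIAT scored 0 at both ends. The 3 with a higher 3′ end had the largest steps. These were 5 to 94 in the 1738 nt intron of MIR17HG, and 32 to 84 in the 26245 nt intron and 2 to 39 in the 80868 nt intron of PVT1. In the 26245 nt intron the score of 32 is that of a 12 nt target and the 84 that of one of 100 nt. The largest falls were from 27 to 0 in the 7395 nt intron of DLEU2 and from 36 to 16 in the 2715 nt intron of PVT1. Over all placed targets of the named genes, 15 at 5′ ends had a median score of 4 and a highest of 36, and 16 at 3′ ends had a median of 4 and a highest of 94. Introns of 1 gene can share a target, so these pairs are not independent.

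**Figure D3:**
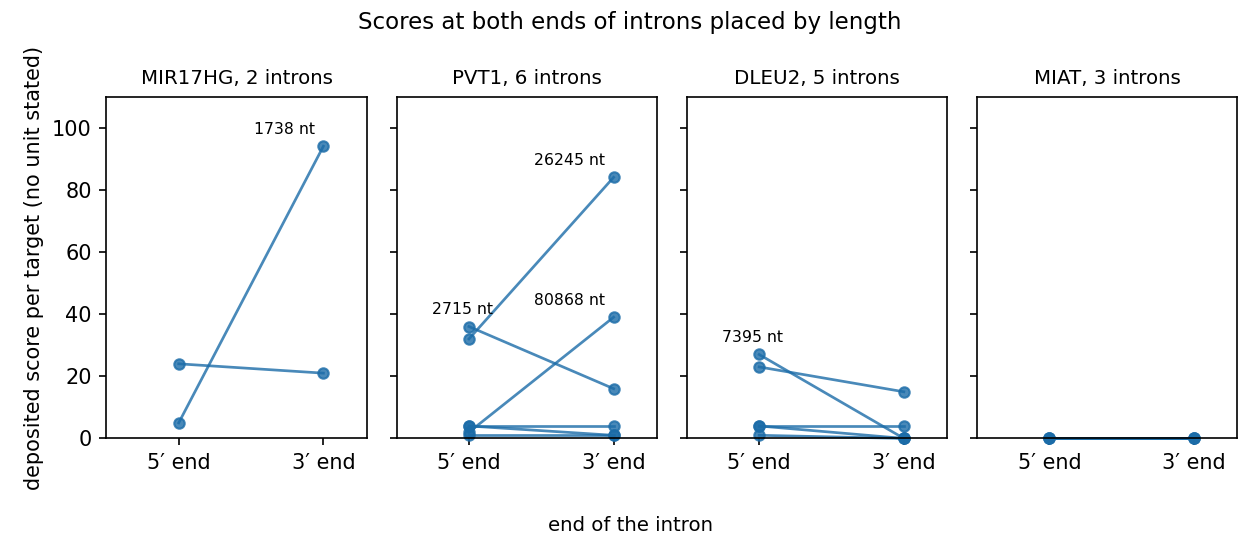
Deposited score (vertical axis, linear, no unit stated) at the 5′ and 3′ end (horizontal axis) of each intron with both ends placed, 1 line per intron; introns whose ends differ by 20 or more carry their length. Lines rise steeply in 1 intron of MIR17HG and 2 of PVT1, and the 3 lines of MIAT lie on top of each other at 0.

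The share of annotated introns with both ends listed was taken over release 29. By outer edges alone it was 4 of 35 distinct introns in PVT1, 2 of 25 in MIAT, 0 of 15 in TUG1, 3 of 22 in DLEU2 and 2 of 3 in MIR17HG. By inner edges it was 6 in PVT1, 3 in MIAT and 5 in DLEU2, and the same in TUG1 and MIR17HG. The labels give 76.4% of introns for the design as a whole, but over release 12 introns and not over those of release 29, so no direction is read from the values. With 100 nt at each intron end and annotated exons removed, but no filter on repeats or transcription, release 29 would leave 33 intervals in PVT1, 18 in MIAT, 0 in TUG1, 24 in DLEU2 and 3 in MIR17HG. The list held 11, 6, 3, 9 (placed on DLEU2 itself) and 5.

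Most targets of these genes had the full width of 100 nt, 41 of 47 (87.2%) against 87.7% of the list. The 6 others were 12 and 99 nt in PVT1, 26 nt in MIAT, 71 and 89 nt in DLEU2 and 101 nt in TUG1. Targets were densest in MIR17HG, with 7.14 per 10 kb of window, and sparsest in PVT1, with 0.357. MIAT had 3.0, TUG1 2.73 and DLEU2 1.53. Of the 42 gaps between neighbouring targets of a gene, 20 (47.6%) were at most 1000 nt, against 58.6% over the list. Their median ran from 74 nt in MIR17HG to 170.5 nt in PVT1, and over the list it was 148 nt.

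Targets are numbered along each chromosome, and 1.24% of all numbers are missing from the list. Inside the 5 genes 1 of 48 numbers was missing, in TUG1 between the targets scoring 86 and 110. Counted from the nearest target outside each window on one side to that on the other, 5 of 52 numbers were missing. Of these, 3 of 6 fell at TUG1, 1 of 6 at MIR17HG and 1 of 12 at PVT1, while MIAT and DLEU2 lacked none. At MIR17HG and PVT1 the missing number follows the last target of the gene. Where the missing intervals lay between their neighbours, and what they scored, cannot be read from the list.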

How the data were processed

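The study measured K562 RNA captured with intron-end probes in 3 libraries of 1 group. The deposited list is its probe design on hg19, per the submitters' processing notes. Per the labels' protocols, the authors took 100 nt at each end of introns of GENCODE release 12, removed parts overlapping exons or strongly transcribed in public K562 data, and repeats were omitted during probe design at the manufacturer. The deposited score is a whole number with no stated unit, origin or scaling, so it was treated as a score and no count model was fitted. Reads, branchpoint calls and depths were not analysed here.

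Targets wholly inside the 5 windows were taken, and coordinates are 1-based hg19. GENCODE release 29 lies on GRCh38, so only lengths were compared with the list, never coordinates. A pair of targets was placed on an intron when its outer span, or its inner span plus 200 nt, was within 1 nt of the intron length. A further target was placed where a matched intron plus the adjoining exon fitted exactly. The inner-span and exon rules were chosen after the data were seen, and the exon rule, first allowed 1 nt off and any intron, was narrowed once it gave matches to several overlapping genes. Mature microRNAs come from RefSeq (GRCh38.p14) and exons from GENCODE transcripts. By the rule for named items, all 5 genes were described, with the 3 highest, the narrowest and the widest target of each, and every target where a gene has at most 12. For DLEU2 the widest are its 20 targets of 100 nt, and other targets named there were chosen after their values were seen. Genes, windows and lists were chosen with earlier results of these data known. Python 3.11.15, numpy 2.4.6, pandas 2.3.3, scipy 1.17.1 and matplotlib 3.10.9 were used.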

Additional observations from a re-analysis of the deposited data

How the results depend on the processing

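The order of the genes, TUG1, MIR17HG, PVT1, DLEU2 and MIAT, had 0 pairs swapped with the median, the width-weighted mean or the share above 0, although PVT1 and DLEU2 tied by the median, and TUG1, MIR17HG and PVT1 tied by the share above 0. Of 87 alternative values, 79 stayed within 1.5 times the value given (counts and scores), inside its 95% exact binomial interval (shares) or in the same order (genes), and 8 did not. That interval treats targets as independent, which those of 1 gene are not, and is wide for so few: the top-group share of MIR17HG went from 60.0% to 20.0% at the 95th percentile and is among the 79. Some of the 79 could not move, such as the median and the width-weighted mean of MIAT, whose targets all scored 0. With the median in place of the mean, the score was 4.0 in PVT1, 4.0 in DLEU2 and 21.0 in MIR17HG. Without its highest target MIR17HG had a mean of 16.5. With the targets placed on its own introns alone, DLEU2 had a mean of 10.3. With the 95th percentile, 35, in place of the 90th, 0.0% of DLEU2 targets were in the top group. By inner spans 5 DLEU2 introns had both ends listed in place of 3. With a width of 90 to 110 nt, 100.0% of TUG1 targets had the full width. No paired analysis was possible because all libraries belong to 1 group and share a single design, which also left no replicate to leave out.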

Other observations

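The surroundings of the 5 windows were also read, over a stretch as long as each window on either side. Around PVT1, 5 targets before it had a mean score of 21.8 and 2 after it scored 1 and 0. Around DLEU2, which runs on the minus strand, 9 targets on its 3′ side had a mean of 7.56, close to the 6.86 of the window. The 2 on its 5′ side had a mean of 1.0. The 4 targets just before TUG1 scored 4 to 14, all below its lowest target at 86, and none lay in the stretch after it. MIAT and MIR17HG had no target in either stretch. The nearest targets to MIR17HG were 216.7 kb before it, with a score of 2, and 48.9 kb after it, with a score of 0, against 5 to 94 inside the gene.

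Neighbouring targets at most 300 nt apart formed 17 pairs in these genes. Their median difference in score was 3, against 1 over the 169149 such pairs of the list. More members than list targets scored above 0 (83.0% and 52.8%), and pairs of like score were not compared. The largest differences were 70 in MIR17HG, 48 in PVT1 (84 and 36, reached by 2.36% of list pairs) and 23 in DLEU2. Each of these 3 pairs lies at most 139 nt apart, and in each the targets lie at ends of different introns.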
